A study of Homo sapiens with 24 samples.

Results

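Folate-dependent one-carbon metabolism was followed through 8 enzymes: SHMT1, SHMT2, MTHFD1, MTHFD1L, MTHFD2, MTHFD2L, ALDH1L2 and MTHFS. They were listed by name, as cytosolic and mitochondrial enzymes of the folate cycle, with earlier results of these data known. The rule itself uses no measured value. All 8 were found by gene identifier in both expression tables, among 63241 genes listed for untreated and 36741 genes listed for treated cells, and all 8 passed the filter on low values in both. Polyadenylated RNA was sequenced from human cells labelled SH-SY5Y, a neuroblastoma line. In 2 of the 4 lines a hairpin was expressed, directed at MCART1 in shMCART1 and scrambled in shScramble. In the other two, oeMCART1 carried a construct that raises MCART1 and oeNC was the matching control. Each was sampled without and with 0.5 mM MPP+ for 24 h, a toxin that blocks mitochondrial complex I and is used to model Parkinson's disease in culture. There were 3 libraries in each of the 8 groups, 24 in all. The gene now named SLC25A51 was formerly MCART1, and it encodes the mitochondrial NAD+ importer. The hairpin's target site, the make-up of the oeNC construct, and whether the lines are clones or pools were not stated in the labels. The labels also leave out if a replicate was its own culture, and the p-values therefore cover only library-to-library spread, possibly technical.

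Folate carries single carbon units between donors and biosynthetic reactions, and the same steps run in parallel in mitochondria and cytosol. In mitochondria SHMT2 takes a carbon from serine, MTHFD2 or MTHFD2L oxidises it with NAD+ or NADP+ as acceptor, and MTHFD1L releases it as formate for export. In the cytosol MTHFD1 takes up that formate for purine and thymidylate synthesis and SHMT1 exchanges carbon with serine. ALDH1L2 instead burns the formyl unit to carbon dioxide inside mitochondria and makes NADPH, and MTHFS returns the storage form folinic acid to the active pool. MTHFD2 and other mitochondrial members are known targets of the amino acid and mitochondrial stress response driven by ATF4.

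The identity of the cells was checked first. Of the 10 adrenergic neuroblastoma markers that define this line, TH was listed at 0 TPM in every untreated library, and PHOX2A and DBH reached at most 0.09 and 0.07 TPM. HAND2 (2.59 to 4.44 TPM), GATA3 (3.92 to 5.90 TPM) and ISL1 (2.07 to 4.80 TPM) were present. The 10 summed to 11.3 to 17.0 TPM per untreated library, and the 7 listed in the treated table to 10.5 to 16 TPM. The 8 mesenchymal markers summed to 351 to 469 TPM untreated and 445 to 691 TPM treated, mostly vimentin (VIM). Over both tables FN1 (9.3 to 22.0 TPM), COL1A1 (1.78 to 26.6 TPM), SNAI2 (5.78 to 18.3 TPM), YAP1 (5.07 to 14.4 TPM) and TWIST1 (4.53 to 8.69 TPM) were present, PRRX1 was low (0.31 to 1.86 TPM) and CD44 reached at most 1.08 TPM. Of 8 marrow blood cell markers, HBA1, which has a near-identical copy in HBA2, stood at 20.9 to 41.7 TPM untreated, while HBB, another globin, and the B cell marker MS4A1 were at 0 TPM and the leukocyte marker PTPRC reached at most 0.17 TPM. TH, PHOX2A and DBH, defining adrenergic markers of the labelled line, were thus at or near 0, and the libraries are called here by their construct. The growth protocol also names HEK293T cells. Libraries held 13022 to 14306 genes at 1 TPM or more. TPM is transcript abundance per length, scaled to 1000000 in a library, and keeps no sequencing depth, so the depth behind each value is unknown.

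The targeted gene SLC25A51 moved as the labels say in all 4 comparisons with its own control, at 66.5% of shScramble in untreated shMCART1 and 67.5% with MPP+. Overexpression gave 21.6 times the oeNC level untreated and 110 times with MPP+, a ratio that rests on an oeNC level of 31.6 ± 3.48 TPM untreated (SD, n = 3) and 8.49 ± 0.837 TPM treated. The groups did not overlap in any of the 4, as held for 48.6%, 49.5%, 62.4% and 64.0% of all genes tested. The two-sided exact permutation test gave p = 0.1 in each, and 3 libraries against 3 can reach no lower value. By limma the untreated knockdown change was -0.56 (adjusted p = 0.0195). That call ended without shScramble replicate 2 (0.0811) or shMCART1 replicate 1 or 3 (0.0518 and 0.0625). It also ended without a filter (0.0561) and with the compared groups alone (0.0758). Untreated oeNC stood at 2.89 times shScramble (adjusted p = 0.00203, limma).

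The genes lie, in GENCODE 29 on GRCh38, at 17:18327860-18363563 minus strand for SHMT1, 12:57229327-57234935 plus for SHMT2, 14:64388031-64463457 plus for MTHFD1 and 6:150865549-151101887 plus for MTHFD1L. MTHFD2 lies at 2:74198562-74217565 plus, MTHFD2L at 4:74114174-74303099 plus, ALDH1L2 at 12:105019784-105084577 minus and MTHFS at 15:79833585-79897379 minus. All 8 are protein-coding genes. Promoter sequence is shown because ATF4 and MYC are known regulators of the pathway. Promoter windows of RefSeq (GRCh38.p14, 250 bases before to 50 after a start) matched 6 of the 8 by symbol. SHMT2 and ALDH1L2 had no entry. The part of the MTHFD2 window that lies upstream of the gene's annotated exons is printed, followed by the sites found in other members, with the motif in capitals. They are at chr2:74198365-74198561, chr6:150866347-150866374, chr6:150866321-150866348 and chr14:64388325-64388352, all plus strand. The MTHFD1L and MTHFD1 sites lie within the annotated genes as placed above, not upstream of them. Depending on the RefSeq start used, the MTHFD1L TGATGCAA begins at -129, -90 or 24. The MTHFD1 CACGTG begins at -15.
MTHFD2 upstream: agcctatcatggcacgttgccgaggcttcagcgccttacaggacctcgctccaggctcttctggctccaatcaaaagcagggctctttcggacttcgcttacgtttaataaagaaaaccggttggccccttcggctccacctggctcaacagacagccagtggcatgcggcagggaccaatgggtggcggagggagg
MTHFD1L, TGATGNAA: ccgccggctcTGATGCAAtcgcgccggg
MTHFD1L, CACGTG: acgcccggctcCACGTGcgcagccggcc
MTHFD1, CACGTG: gccagtccctaagCACGTGggttgggtt
Both motifs were searched on both strands. The composite element TGATGNAA, the core bound by ATF4 with a C/EBP partner, was found in the windows of 1 of 6 members, MTHFD1L, and in those of 4.5% of 27305 genes. The E-box CACGTG, bound by MYC and USF proteins, was found for 2 of 6, MTHFD1 and MTHFD1L, and for 8.8% of genes. The MTHFD2 window, whole or trimmed, held neither set of letters. A match is a description of the window only.

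In untreated shScramble, SHMT2 (245 ± 24.4 TPM, SD, n = 3), MTHFD1 (220 ± 5.39 TPM) and MTHFD2 (162 ± 14.4 TPM) were the most abundant per length. MTHFD1L (48.0 ± 0.795 TPM) and SHMT1 (46.0 ± 2.77 TPM) stood at about the same level. MTHFS (17.5 ± 1.79 TPM), MTHFD2L (8.95 ± 0.576 TPM) and ALDH1L2 (4.15 ± 0.896 TPM) were low. The pathway's mRNA pool was therefore held mostly by 3 enzymes, which made up 32.6%, 29.3% and 21.6% of the summed TPM of the 8.

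**Figure D1:**
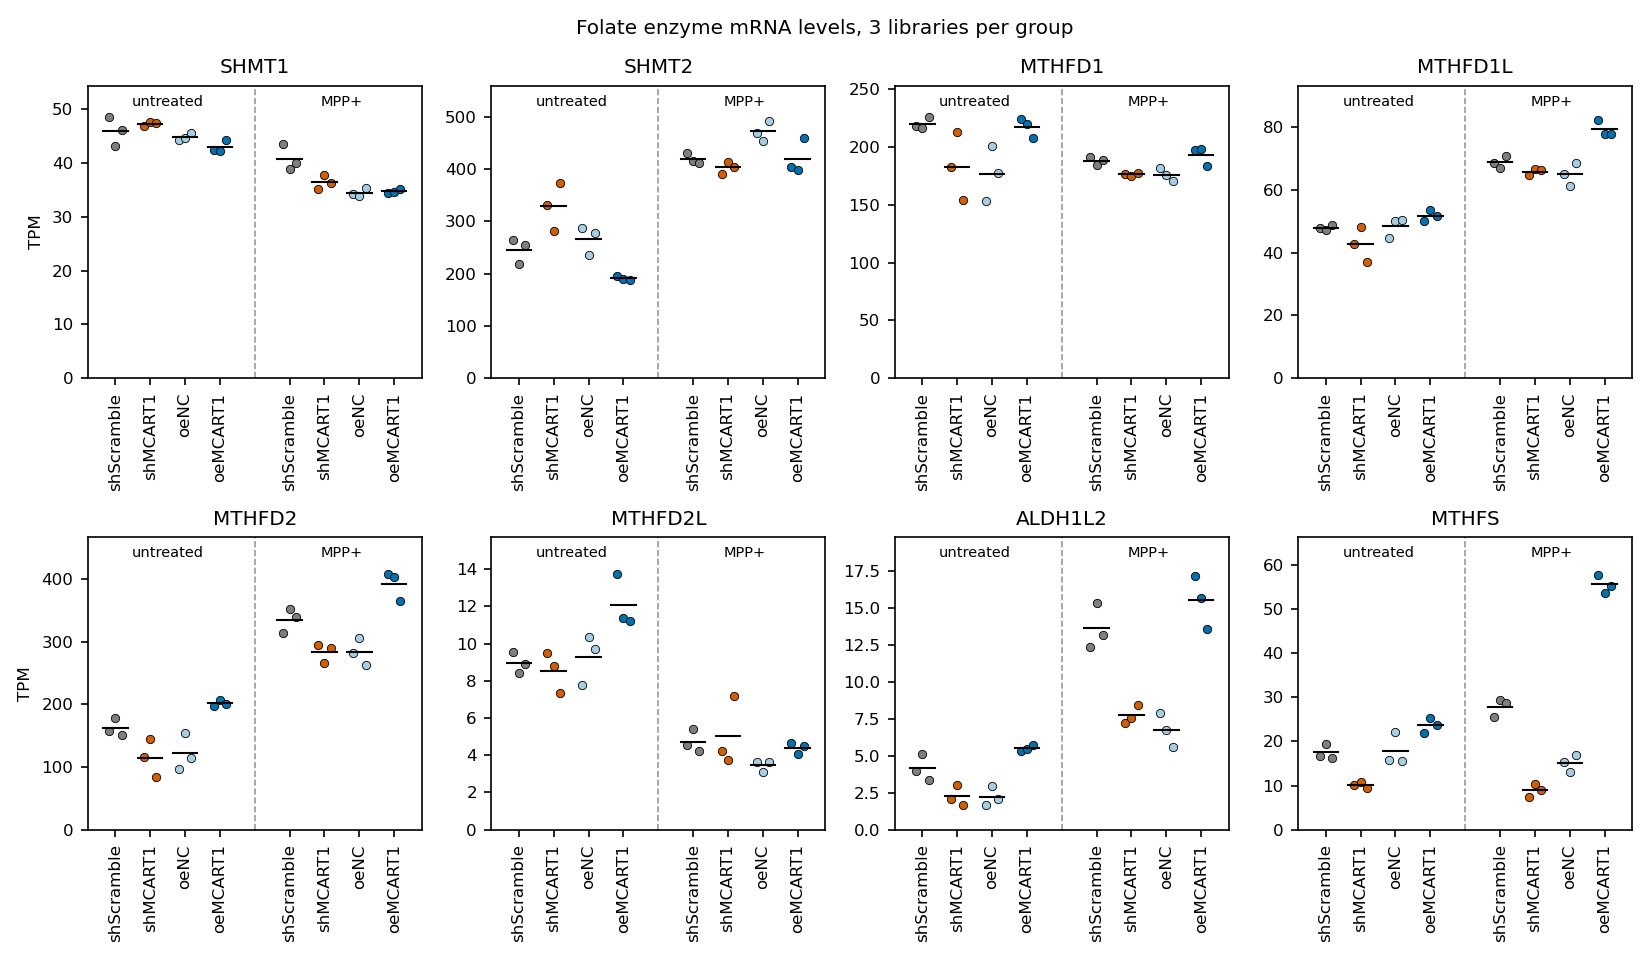
TPM of the 8 folate enzymes in each library (points) with the group mean (line), untreated left of the dashed line and MPP+ treated right of it, each panel on its own axis from 0. In MPP+ treated cells, MTHFS at 53.8 to 57.8 TPM in oeMCART1 lies above every other group, and at 7.5 to 10.3 TPM in shMCART1 below every other group.

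MTHFS, the ATP-dependent enzyme that recovers folinic acid, had the largest changes of the 8 under MPP+ when knockdown or overexpression was set against its own control. In untreated cells the 3 shScramble libraries held 16.64, 19.52 and 16.25 TPM and the 3 shMCART1 libraries 10.09, 10.90 and 9.37 TPM. The untreated oeNC libraries held 15.74, 22.16 and 15.64 TPM and oeMCART1 22.04, 25.32 and 23.81 TPM. The knockdown groups did not overlap, and the overexpression groups did, through oeNC replicate 2. With MPP+ shScramble stood at 25.59, 29.48 and 28.63 TPM and shMCART1 at 7.5, 10.32 and 9.04 TPM. With MPP+ oeNC stood at 15.26, 13.14 and 16.91 TPM and oeMCART1 at 57.79, 53.84 and 55.35 TPM. Under MPP+ no 2 of the 4 groups overlapped, in the order oeMCART1, shScramble, oeNC, shMCART1.

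As differences of log2(TPM + 1) tested with limma and adjusted over all genes, MTHFS fell by 0.73 ± 0.13 (SE, adjusted p = 0.0139) with knockdown in untreated cells and by 1.55 ± 0.11 (1.86e-05) in treated cells. That is 57.9% and 32.1% of the shScramble level. With overexpression MTHFS rose by 0.41 ± 0.13 (adjusted p = 0.0269, limma) untreated and 1.82 ± 0.11 (4.57e-07) treated, or 1.33 and 3.69 times oeNC. Under MPP+ its change ranked 22 from the lowest in knockdown and 17 from the highest in overexpression, among 14895 genes tested. The effect with MPP+ minus the effect without was itself tested, in a fit of all 24 libraries. It was -0.82 ± 0.18 for knockdown (adjusted p = 0.0126, limma) and 1.41 ± 0.18 for overexpression (1.96e-05). The treated controls differed as well, with MTHFS lower in oeNC than in shScramble, a change of -0.85 ± 0.11 (SE, adjusted p = 0.00016, limma). In untreated cells that difference was 0.02 ± 0.13 (0.946). In untreated knockdown the call was lost without shScramble replicate 2 (adjusted p = 0.0744, limma) and in a fit of the compared groups alone (0.0598). The untreated overexpression call ended without oeNC replicate 1 or 3 or oeMCART1 replicate 2 or 3 (0.0683 to 0.106), and under median-of-ratios scaling (0.21, 0.136).

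MTHFS shares sequence with a neighbour. ST20-MTHFS, a readthrough gene on the same strand, holds 528 of the 918 stretches of 31 bases (57.5%) in the longest MTHFS transcript, and the authors' counting could split reads between them. It stood at 8.22 ± 0.853 TPM in treated shMCART1 and 15.8 ± 0.787 TPM in treated shScramble (log2 change -0.87 ± 0.10, SE, adjusted p = 0.000151, limma). In treated oeMCART1 it stood at 17.2 ± 1.75 TPM and in oeNC at 14.7 ± 1.24 TPM, a log2 change of 0.21 ± 0.10 that missed the threshold (adjusted p = 0.0769, limma). With both summed, the change was -0.66 ± 0.13 (0.0141) in untreated and -1.30 ± 0.09 (1.86e-05) in treated knockdown. In treated overexpression it was 1.27 ± 0.09 (1.15e-06). In untreated overexpression the call ended with the sum, at 0.15 ± 0.13 (0.375). Both differences between treated and untreated effects remained called with the sum, at -0.64 (adjusted p = 0.0291, limma) and 1.12 (9.66e-05).

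**Figure D2:**
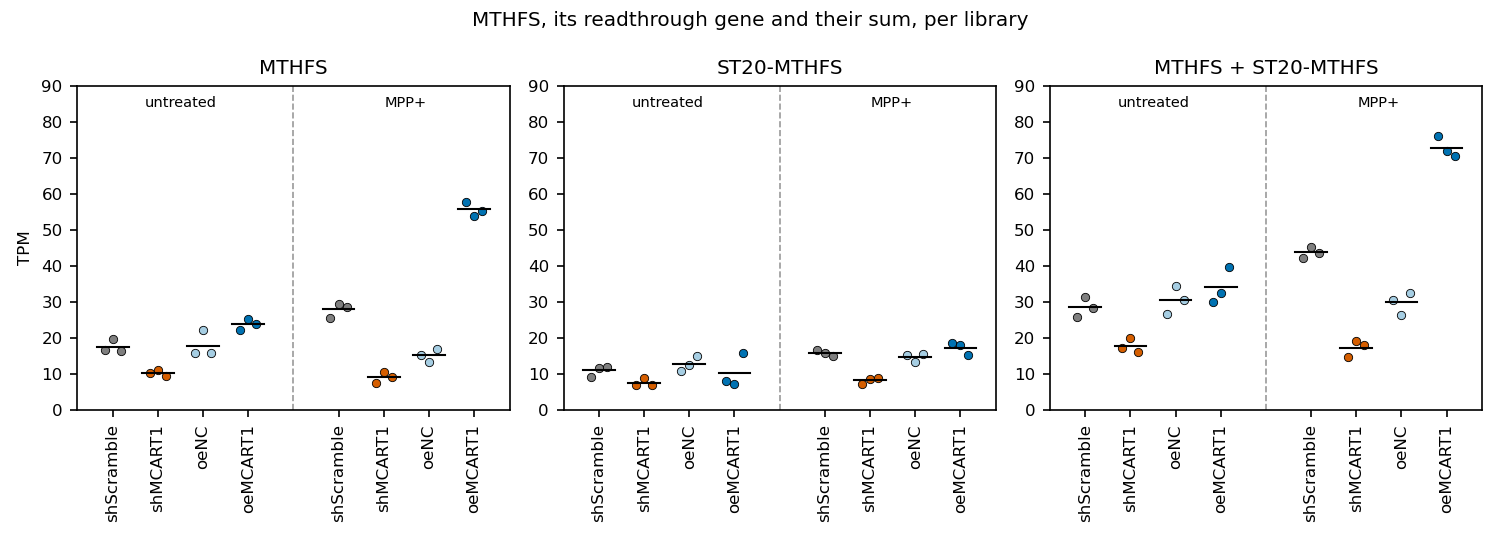
TPM per library (points) and group mean (line) of MTHFS, of the readthrough gene ST20-MTHFS and of their sum, on one scale from 0 to 90. The sum keeps treated oeMCART1 highest (70.5 to 76.2 TPM) and treated shMCART1 lowest among treated groups (14.7 to 18.9 TPM).

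The mitochondrial enzymes came next. ALDH1L2, the formyltetrahydrofolate dehydrogenase, held 3.99, 5.12 and 3.35 TPM in untreated shScramble and 2.08, 3.03 and 1.66 TPM in shMCART1. It held 1.65, 2.93 and 2.06 TPM in untreated oeNC and 5.30, 5.47 and 5.71 TPM in oeMCART1. Neither pair overlapped, and oeNC was as low as shMCART1. With MPP+ it held 12.37, 15.31 and 13.16 TPM in shScramble and 7.19, 7.53 and 8.45 TPM in shMCART1. With MPP+ it held 7.89, 6.74 and 5.59 TPM in oeNC and 17.17, 15.67 and 13.54 TPM in oeMCART1. The treated pairs did not overlap either. ALDH1L2 fell with knockdown, by 0.67 ± 0.19 (SE, adjusted p = 0.0243, limma) untreated and by 0.74 ± 0.12 (0.00118) treated. It rose with overexpression, by 1.03 ± 0.19 (0.00427) and 1.09 ± 0.12 (1.63e-05). The effects with and without MPP+ differed by -0.07 ± 0.23 for knockdown and 0.06 ± 0.23 for overexpression, neither called (adjusted p = 0.87 and 0.904, limma). Between treated controls ALDH1L2 was lower in oeNC, with a change of -0.92 ± 0.12 (0.000193), and treated oeMCART1 overlapped treated shScramble. In untreated knockdown the call was lost without shScramble replicate 1 or 2 (adjusted p = 0.0504 and 0.103, limma) or shMCART1 replicate 1 or 3 (0.0637 and 0.095). C12orf45, on the opposite strand with overlapping exons, stood at 14.9 TPM over the untreated libraries, above ALDH1L2, and whether counting used the strand is not given in the sources.

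MTHFD2, the mitochondrial methylenetetrahydrofolate dehydrogenase and cyclohydrolase, moved the same ways. Untreated shScramble held 158.09, 178.14 and 150.19 TPM and shMCART1 116.59, 143.92 and 83.22 TPM. Untreated oeNC held 97.28, 153.43 and 114.22 TPM and oeMCART1 197.47, 207.34 and 200.40 TPM. The compared groups did not overlap, and oeNC and shMCART1 were the widest spread. With MPP+ shScramble held 314.45, 351.43 and 339.30 TPM and shMCART1 294.24, 265.71 and 290.01 TPM. With MPP+ oeNC held 282.32, 305.75 and 262.34 TPM and oeMCART1 407.65, 402.51 and 364.44 TPM. MTHFD2 fell with knockdown by 0.53 ± 0.19 (SE, adjusted p = 0.0472, limma) untreated and by 0.24 ± 0.07 (0.0163) treated. It rose with overexpression by 0.75 ± 0.19 (0.00887) and 0.47 ± 0.07 (8.92e-05). The untreated knockdown call of MTHFD2 ended without any 1 of the 3 shScramble libraries (adjusted p = 0.0837, 0.156 and 0.0651, limma) and without shMCART1 replicate 1 or 3 (0.0826 and 0.186). In treated knockdown it ended without shScramble replicate 2 or 3 (0.0664 and 0.0543) or shMCART1 replicate 2 (0.0701). Under median-of-ratios scaling 3 of the 4 calls ended, at -0.33 (0.0646), -0.14 (0.12) and, in treated overexpression, 0.15 (0.0615). Treated oeNC also stood below treated shScramble, at -0.24 ± 0.07 (0.0107).

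SHMT2, which opens the mitochondrial branch by splitting serine, went the other way in untreated cells. Untreated shScramble held 264.27, 217.78 and 253.73 TPM and shMCART1 331.83, 281.88 and 373.83 TPM. Untreated oeNC held 287.59, 235.19 and 277.78 TPM and oeMCART1 195.25, 189.59 and 188.30 TPM. No compared pair overlapped, with the knockdown libraries high and the overexpression libraries low. SHMT2 rose by 0.42 ± 0.11 (SE, adjusted p = 0.0211, limma) in untreated knockdown and fell by 0.47 ± 0.11 (0.0072) in untreated overexpression. With MPP+ shScramble held 431.47, 415.84 and 411.22 TPM, and shMCART1 391.33, 413.04 and 403.70 TPM. These overlapped, at a change of -0.06 ± 0.05 (0.42). With MPP+ oeNC held 469.78, 454.23 and 492.81 TPM and oeMCART1 403.98, 398.44 and 458.62 TPM, a change of -0.17 ± 0.05 (0.0144), with overlap through oeMCART1 replicate 3, called no longer without oeNC replicate 3 or oeMCART1 replicate 1 or 2 (0.0553, 0.0593 and 0.065). The knockdown effect differed between treated and untreated cells by -0.48 ± 0.13 (adjusted p = 0.0363, limma). That call ended without any 1 of the 12 shScramble and shMCART1 libraries except untreated shScramble replicates 1 and 3 and untreated shMCART1 replicate 2 (adjusted p up to 0.109, limma), under median-of-ratios scaling (-0.60, 0.0696) and with the compared groups alone (0.107). The overexpression effect differed by 0.30 ± 0.13 (0.0981), which was not called. The untreated knockdown call itself ended without shScramble replicate 2 (0.0916) or shMCART1 replicate 1 or 3 (0.0545 and 0.0793).

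The remaining mitochondrial members changed little. For MTHFD1L, the formate-releasing synthetase, shScramble held 48.0 ± 0.795 and shMCART1 42.6 ± 5.65 TPM (SD, n = 3), and oeNC held 48.4 ± 3.13 and oeMCART1 51.8 ± 1.70 TPM. Neither untreated change passed the test. With MPP+ MTHFD1L rose with overexpression by 0.28 ± 0.05 (SE, adjusted p = 0.000376, limma), from 65.0 ± 3.63 to 79.3 ± 2.66 TPM without overlap, though median-of-ratios scaling put it at -0.03 (0.645). Knockdown gave 65.8 ± 1.04 against 68.8 ± 1.96 TPM (0.363). MTHFD2L, the paralogue of MTHFD2 that shares no stretch of 31 bases with it, rose in untreated overexpression from 9.29 ± 1.35 to 12.1 ± 1.41 TPM. That change of 0.35 ± 0.13 (adjusted p = 0.0437, limma) lost its call without any 1 of oeMCART1 replicates 1, 2 and 3 or of oeNC replicates 1 and 3 (0.0627 to 0.177). Its other changes were not called.

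In the cytosol, the trifunctional MTHFD1 averaged 220 ± 5.39 TPM with shScramble against 183 ± 29.3 with shMCART1, a change of -0.28 ± 0.12 that missed the threshold (adjusted p = 0.0785, limma). It stood at 177 ± 23.9 TPM in oeNC and 217 ± 8.26 TPM in oeMCART1, at 0.30 ± 0.12 (adjusted p = 0.0501, limma). That change passed the threshold with the replicate block (0.0357), the compared groups alone (0.0363), quantile normalization (0.0399), a filter of 5 TPM (0.0419), a robust variance (0.0481) and without oeNC replicate 2 (0.39, 0.0174), and stood at 0.09 under median-of-ratios scaling (0.317) and 0.04 with GC trends removed (0.615). With MPP+ the overexpression change was called at 0.13 ± 0.04 (0.0121), from 176 ± 5.86 to 193 ± 8.12 TPM, and the knockdown change was -0.09 ± 0.04 (0.0952). Without oeMCART1 replicate 2 the treated overexpression call ended (0.0523), and under median-of-ratios scaling the change turned to -0.18 (0.00265). SHMT1 stood between 42.2 and 48.7 TPM in the untreated libraries and between 33.8 and 43.5 TPM in the treated ones. It fell in treated knockdown by 0.16 ± 0.05 (SE, adjusted p = 0.0411, limma), a call lost under median-of-ratios scaling (-0.05, 0.55) and on leaving out shScramble replicate 1 or 3 or any of the 3 shMCART1 libraries (0.0514 to 0.144). Its overexpression changes were not called, at -0.06 (adjusted p = 0.489, limma) untreated and 0.01 (0.866) treated. Both were called lower under median-of-ratios scaling, at -0.27 (0.0306) and -0.30 (0.00183), and under quantile normalization, at -0.20 (0.0257) and -0.25 (0.00264). SMCR8, on the opposite strand of SHMT1 with overlapping exons, stood at 8.78 TPM untreated and 5.71 TPM treated.

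**Figure D3:**
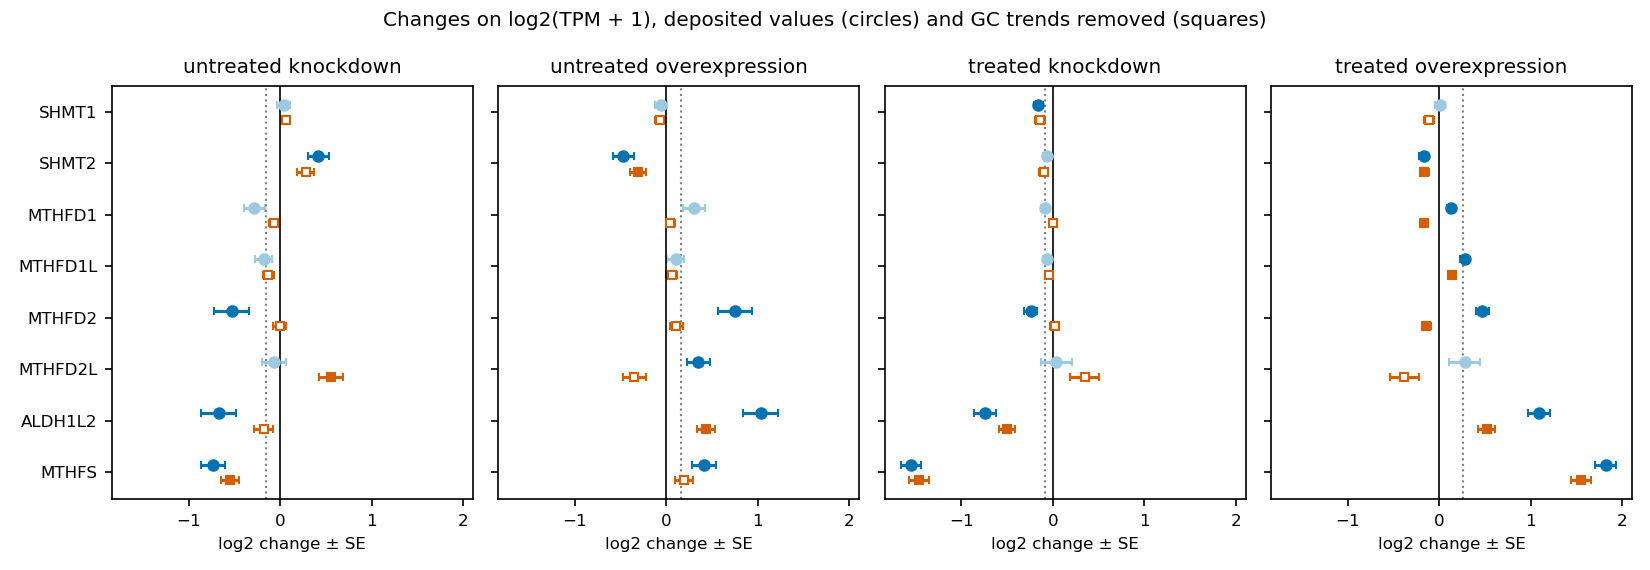
Change of each enzyme on log2(TPM + 1) with its SE in the 4 comparisons of knockdown with shScramble or overexpression with oeNC; circles are the deposited values (dark where called, pale where not) and squares the values after removing GC content trends per library (filled where called). The dotted line is the median of all genes tested; MTHFS under MPP+ stays far from 0 on both, at -1.55 and -1.46 and at 1.82 and 1.55, while MTHFD2 moves to -0.0037, 0.11, 0.02 and -0.14.

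Counted together, 4 of the 8 were called in untreated knockdown (SHMT2 higher; MTHFD2, ALDH1L2 and MTHFS lower), against 34.2% of 14703 genes tested (8.64% higher and 25.6% lower). The median change of the 8 was -0.23 and that of all genes -0.15. In untreated overexpression 5 were called (MTHFD2, MTHFD2L, ALDH1L2 and MTHFS higher; SHMT2 lower), against 48.2% (33.5% higher and 14.7% lower), with medians of 0.33 and 0.16. In treated knockdown 4 were called, all lower (SHMT1, MTHFD2, ALDH1L2 and MTHFS), against 33.1% of 14895 genes (22.2% lower), with medians of -0.13 and -0.08. In treated overexpression 6 were called, 5 higher and SHMT2 lower, against 60.9% (46.7% higher and 14.2% lower), with medians of 0.28 and 0.26. So large a share of all genes was called that these counts are no result about the members. Groups did not overlap for 5, 6, 6 and 6 members in these comparisons, against 48.6%, 62.4%, 49.5% and 64.0% of genes. Of the tests of a different effect under MPP+, 2 members were called for knockdown (SHMT2 and MTHFS), both lower, against 4.49% of 13571 genes (2.48% lower), and 1 for overexpression (MTHFS, higher), against 19.9% (14.1% higher). Single libraries moved the counts of members and those of all genes. All genes called in untreated knockdown went from 5035 to 3178 without shScramble replicate 1. Without shMCART1 replicate 1 or 3 they went to 2233 and 960. In untreated knockdown the member count was 2 without shScramble replicate 1, 0 without shScramble replicate 2, and 1 without shMCART1 replicate 1 or 3. With the compared groups alone it was 0 by limma, where 0 of all 14703 genes were called and 5799 had an unadjusted p under 0.05; without shScramble replicate 2, 2 genes in all were called. In untreated overexpression it was 3 without oeNC replicate 1 or 3 or oeMCART1 replicate 2 or 3, and in treated knockdown 2 without shScramble replicate 3 or shMCART1 replicate 2. The knockdown difference was called for 1 member without any 1 of the 9 libraries named for SHMT2, and the overexpression difference for 2 without untreated oeNC replicate 2. Leaving out 1 library gave 257 to 2554 and 2137 to 2747 calls over all genes for these differences.

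The scaling also set the balance of calls over all genes. TPM put 25.2% of calls in untreated knockdown on the higher side, and median-of-ratios scaling 49.2%. In untreated overexpression these shares were 69.6% and 51.7%, in treated knockdown 32.8% and 52.8%, and in treated overexpression 76.6% and 49.0%. Between the controls they were 15.3% and 51.0% untreated and 10.7% and 54.1% treated, and for the overexpression difference 70.6% and 42.2%. The median of all genes moved with it from -0.15 to 0.01, from 0.16 to -0.01 and from 0.26 to 0.00 in untreated knockdown, untreated overexpression and treated overexpression. A fall of 0.15 in untreated knockdown or a rise of 0.26 in treated overexpression was thus that of a typical gene, and MTHFD1L at 0.28 lay near it.

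The control constructs differed from each other too. Between untreated oeNC and shScramble no member was called by limma, against 1.29% of 14703 genes. At an unadjusted limma p under 0.05 stood 3 members (MTHFD1, MTHFD2 and ALDH1L2), beside 4511 of all genes. With the replicate number as a block 1 member was called, beside 1936 of all genes. Without oeNC replicate 2 there were 3 members called, beside 2227 of all genes. ALDH1L2 had the largest change of the members, -0.69 ± 0.19 (SE, adjusted p = 0.068, limma). Between treated controls 5 of 8 were called, against 47.9% (5.13% higher and 42.8% lower): SHMT2 higher in oeNC, and SHMT1, MTHFD2, ALDH1L2 and MTHFS lower. This comparison and treated knockdown share the treated shScramble libraries. Side by side, MTHFS stood at -0.85 in oeNC and -1.55 in shMCART1, ALDH1L2 at -0.92 and -0.74, MTHFD2 at -0.24 in both, and SHMT1 at -0.23 and -0.16.

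Changes over all genes followed the GC content of the transcript, with Spearman correlations across genes of 0.767 in untreated knockdown, -0.795 in untreated overexpression, 0.464 in treated knockdown and -0.591 in treated overexpression. They stood at 0.53 between untreated and 0.597 between treated controls, and at -0.534 and 0.228 for the knockdown and overexpression differences. These are across genes, which are not independent replicates. Among the 8, the longest transcripts of MTHFD2 (41.4% GC), ALDH1L2 (42.1%) and MTHFD2L (36.4%) are low in GC and that of SHMT2 (57.0%) is the highest, with MTHFS at 48.2%. After removal of each library's GC trend, MTHFS kept its calls in untreated knockdown (-0.55, adjusted p = 0.0144, limma), treated knockdown (-1.46, 1.84e-05) and treated overexpression (1.55, 1.54e-06). It lost that in untreated overexpression (0.19, 0.201). ALDH1L2 kept 3 of 4, at 0.43 (0.016), -0.50 (0.00177) and 0.52 (0.000495), and lost that in untreated knockdown (-0.18, 0.237). MTHFD2 lost all 4 in their original direction, standing at -0.0037 (0.979), 0.11 (0.285), 0.02 (0.767) and, now called lower in treated overexpression, -0.14 (0.035). SHMT2 kept its untreated overexpression call (-0.31, 0.0328) and stood at 0.28 (0.0576) in untreated knockdown. MTHFD2L turned from -0.07 to 0.56 (0.0262) in untreated knockdown. Between treated controls, MTHFS (-0.56, 0.00352) and ALDH1L2 (-0.45, 0.00369) stayed lower in oeNC, whereas MTHFD2 turned to 0.25 (0.00371).

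Treated and untreated levels can only be set side by side, because the tables were normalised separately and list different gene sets; treated levels were not tested against untreated ones. The tested differences between effects compare changes that were each taken within a table. ALDH1L2 stood at 3.28, 3.42, 3.05 and 2.81 times its untreated TPM with MPP+ in shScramble, shMCART1, oeNC and oeMCART1. MTHFD2 stood at 2.07, 2.47, 2.33 and 1.94 times, and SHMT2 at 1.71, 1.22, 1.77 and 2.20 times. Treated and untreated libraries of these 3 mitochondrial enzymes did not overlap in any construct. MTHFD1L stood at 1.34 to 1.55 times. MTHFD2L went the other way, at 0.528, 0.591, 0.372 and 0.362 times, also without overlap. The cytosolic SHMT1 and MTHFD1 stood at 0.770 to 0.886 and 0.856 to 0.993 times. MTHFS differed by construct, standing at 1.60 in shScramble and 2.35 in oeMCART1 without overlap, and at 0.885 in shMCART1 and 0.846 in oeNC with overlap. The share of all shared genes without overlap between treated and untreated libraries was not counted. Lack of overlap between treated and untreated libraries is therefore no result about the members. The median log2 difference of all 13571 shared genes was -0.13, -0.01, -0.20 and -0.14 in the 4 constructs, and that of the 8 was 0.58, 0.13, 0.21 and 0.78.

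A ratio within a library does not depend on the total to which it is scaled, but it is not freed of the trend with GC content. The summed TPM of the 5 mitochondrial enzymes (SHMT2, MTHFD2, MTHFD2L, MTHFD1L, ALDH1L2) over that of the 2 cytosolic ones (SHMT1, MTHFD1) was 1.76 ± 0.054 in untreated shScramble, 2.19 ± 0.315 in shMCART1, 2.03 ± 0.192 in oeNC and 1.78 ± 0.0402 in oeMCART1 (SD, n = 3). With MPP+ it was 3.67 ± 0.143, 3.59 ± 0.0364, 3.95 ± 0.11 and 4.0 ± 0.174. All 12 treated libraries lay above all 12 untreated ones. Treatment and table cannot be told apart here, since the treated libraries are in a table of their own with a different gene set. A difference in annotation or counting between the tables would not cancel in a ratio, and the gap was not tested. The same holds for the other treated and untreated ratios and shares below. MTHFD2 over SHMT2 ran from 0.362 ± 0.144 in untreated shMCART1 to 1.06 ± 0.0417 in untreated oeMCART1, with shScramble at 0.669 ± 0.129 and oeNC at 0.467 ± 0.164. With MPP+ it was 0.800 ± 0.0622 in shScramble, 0.705 ± 0.0556 in shMCART1, 0.602 ± 0.0704 in oeNC and 0.938 ± 0.124 in oeMCART1. The GC content of the longest transcript is 41.4% for MTHFD2 and 57.0% for SHMT2. With GC trends removed, the log2 changes of MTHFD2 in untreated knockdown and overexpression were -0.0037 and 0.11. Those of SHMT2 were 0.28 and -0.31. The part of GC content in this ratio was not tested. MTHFD2 over its paralogue MTHFD2L was 13.0 to 18.2 on average in the untreated groups and 60.4 to 89.6 in the treated ones. As shares of the 8, MTHFD2 went from 21.6% to 30.5% in shScramble with MPP+ and MTHFD1 from 29.3% to 17.2%. MTHFS made up 0.908% in treated shMCART1 and 4.66% in treated oeMCART1.

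**Figure D4:**
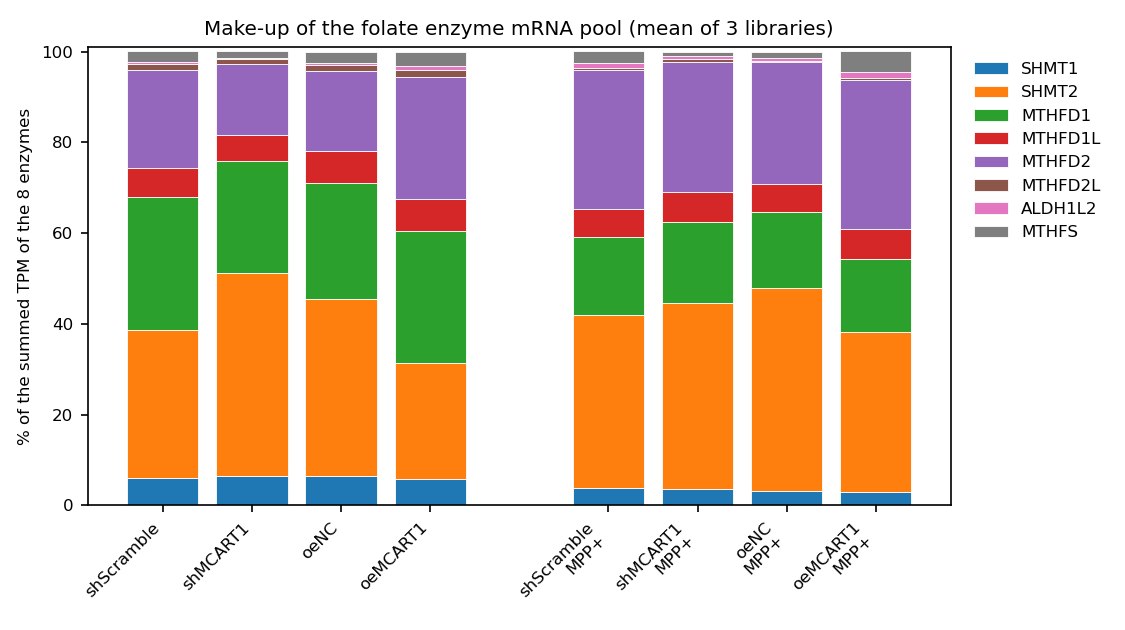
Mean share of each enzyme in the summed TPM of the 8, by group (stacked bars, 3 libraries each), untreated left and MPP+ treated right. SHMT2, MTHFD1 and MTHFD2 hold most of every bar, and the MTHFD1 share is 24.7 to 29.3% untreated and 16.2 to 17.9% treated.

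The 38 other genes of the wider pathway, in 4 lists (folate cycle and carriers, serine synthesis and import, glycine cleavage and choline-derived units, purine ring synthesis), were counted beside the members. In untreated knockdown 3 were called higher and 12 lower of 29 tested, beside 8.64% and 25.6% of all genes. The higher ones included PHGDH, the first enzyme of serine synthesis (554 ± 67.2 against 430 ± 47.8 TPM), and the lower ones the purine enzymes PPAT (14.9 ± 4.53 against 31.1 ± 4.75 TPM) and PAICS (115 ± 37.5 against 214 ± 27.6 TPM). In untreated overexpression 13 were higher and 4 lower of 29, beside 33.5% and 14.7% of all genes. Methionine synthase MTR (13.1 ± 1.13 against 5.87 ± 1.69 TPM) and the folate polyglutamate hydrolase GGH (60.9 ± 1.38 against 29.2 ± 3.42 TPM) rose, while PHGDH and the folate carrier SLC19A1 fell (-0.35 and -0.47). Without shScramble replicate 2 the untreated knockdown calls of PHGDH, PPAT and PAICS ended (adjusted p = 0.097, 0.0752 and 0.0794, limma). PHGDH also lost its knockdown call without shMCART1 replicate 1 or 3 (0.0576 and 0.0892), and its overexpression call without oeNC replicate 1 or 3 or oeMCART1 replicate 3 (0.066, 0.0543 and 0.057). SLC19A1 lost its call without oeNC replicate 3 (0.0567) and with GC trends removed (0.204). Median-of-ratios scaling gave 7 higher and 8 lower in knockdown and 11 and 6 in overexpression, and removal of GC trends 1 and 4 and 5 and 3.

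With MPP+, knockdown gave 5 higher and 17 lower of 31 tested, beside 10.8% and 22.2% of all genes. The serine synthesis enzymes PSPH (35.7 ± 3.21 against 71.0 ± 5.56 TPM) and PSAT1 (293 ± 20.0 against 443 ± 32.4 TPM) and the purine enzyme ADSL (-0.39) fell, and the folate receptor FOLR1 (1.30), SLC19A1 (0.38) and the polyglutamate synthase FPGS (0.37) rose. FOLR1 was low, at 3.19 ± 0.798 against 0.683 ± 0.19 TPM, and its change was 2.07 with a pseudocount of 0.1. Treated overexpression gave 20 higher and 4 lower, beside 46.7% and 14.2% of all genes, with thymidylate synthase TYMS (187 ± 7.84 against 99.9 ± 9.71 TPM), GGH (1.09) and PSAT1 (502 ± 32.5 against 271 ± 18.6 TPM) higher and PHGDH (-0.18), SLC19A1 (-0.37) and the mitochondrial serine carrier SFXN3 (-0.76) lower. Between treated controls 1 was higher and 18 lower in oeNC, beside 5.13% and 42.8%, and median-of-ratios scaling gave 5 and 13. The effect of knockdown differed with MPP+ for 3 of 29, all lower (2.48% of all genes), namely PSPH (-0.65), the purine enzyme PFAS (-0.48) and PHGDH (-0.41). That of overexpression differed for 5, all higher (14.1% of all genes), with PSPH (0.76), PFAS (0.66) and TYMS (0.63) among them. The PHGDH difference ended without any 1 of the same 9 libraries as that of SHMT2 (adjusted p = 0.0647 to 0.13, limma). The PFAS difference ended without untreated shScramble replicate 2, treated shScramble replicate 1 or 3, or treated shMCART1 replicate 2 (0.0523 to 0.0777). With GC trends removed the treated counts were 6 higher and 13 lower in knockdown and 15 and 4 in overexpression; median-of-ratios scaling gave 5 and 12, and 15 and 7.

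Genes of the integrated stress response, a list of 18 with ATF4 and its targets such as ASNS, CHAC1 and TRIB3, were counted because members of the folate pathway are known targets of it. In treated knockdown 13 of 18 were called lower and 1 higher, beside 22.2% and 10.8% of all genes, with a median change of -0.56 beside -0.08. In treated overexpression 12 were higher and 4 lower, beside 46.7% and 14.2% (median 0.51 beside 0.26). In untreated knockdown 4 were higher and 3 lower of 17, beside 8.64% and 25.6% (0.15 beside -0.15), and in untreated overexpression 6 higher and 4 lower, beside 33.5% and 14.7% (-0.08 beside 0.16). Between treated controls, 12 of 18 were lower in oeNC and 1 higher, beside 42.8% and 5.13% of all genes, which median-of-ratios scaling turned to 3 lower and 5 higher. The treated knockdown count stayed at 13 lower and 1 higher under that scaling and with GC trends removed, and the treated overexpression count became 10 higher and 6 lower, and 11 and 5. Of 16 S phase genes, 4 were higher and 5 lower in treated knockdown, with a median of -0.04 (0.06 under median-of-ratios scaling), and the same counts held in untreated knockdown. In overexpression 6 were higher and 2 lower untreated, and 8 higher and 3 lower treated, which median-of-ratios scaling turned to 4 and 9. Between treated controls 3 were higher and 10 lower, and 6 and 4 under that scaling. The shares of all genes are those given for the stress response list. The part of either list in the members' changes was not tested. In bulk RNA, fewer cells of a kind and less RNA per cell cannot be told apart.

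Patterns across the 24 libraries were compared after centring each gene on the mean of its table. MTHFS was most like XBP1 (r = 0.964), ODC1 (0.964) and MED10 (0.962) among 8338 genes. MTHFD2 was most like UTP18 (0.982), DYNC1LI1 (0.981) and CCT6A (0.981), and SHMT2 most like LONP1 (0.971), AAMP (0.970) and MAP2K2 (0.969). MTHFD1 was most like HNRNPK (0.944), MTHFD1L most like MRPL9 (0.949), and SHMT1 less closely like any gene, with STK10 first (0.806). Among the members, MTHFD2 and ALDH1L2 ran together (r = 0.90), as did MTHFD2 and MTHFD1 (0.89), and SHMT2 ran against MTHFD2 (-0.84) and ALDH1L2 (-0.71). SHMT1 correlated with none of the others beyond 0.33 in size. These are descriptions over 24 libraries that share constructs and, as above, a trend with base composition, which the correlations were not freed of.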

How the data were processed

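The 24 libraries of polyadenylated RNA were read from 2 deposited tables of TPM, 12 libraries each, which the authors scaled per library. The submitters' processing notes name GRCm38, mm10 and GRCh38 with no role for each; the aligner, the annotation and strand use are not given in the sources. Entries without a gene identifier (25 untreated, 42 treated) held no values and were left out. Depth is unknown from TPM. Positions, transcript GC content and shared sequence came from GENCODE 29.

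Genes reaching 1 TPM in 3 libraries or more of their table were fitted on log2(TPM + 1), pseudocount 1, with limma 3.58.1 in R 4.3.3 (trended empirical Bayes, all 4 groups of a table, or all 8 for the differences between effects). Calls need a Benjamini-Hochberg adjusted p under 0.05 over all genes tested. The fit was tested on simulated data. Python 3.11.15, pandas 2.3.3, numpy 2.4.6, scipy 1.17.1 and matplotlib 3.10.9 did the rest. Alternatives were a pseudocount of 0.1, no filter or one of 5 TPM, 2 other scalings, removal of each library's GC trend (natural spline, 5 degrees of freedom), a replicate block, a robust variance, the compared groups alone, each library left out, and, added after seeing the data, MTHFS summed with ST20-MTHFS.

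All 8 members and SLC25A51 are named. Of the other pathway genes, up to 3 called in each direction with the smallest p are named in each knockdown or overexpression comparison, and for likeness the 3 highest correlations of members at 5 TPM or more in both tables. Some genes of the lists are not reported here by name. Members and lists were chosen with earlier results of these data known.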

Additional observations from a re-analysis of the deposited data

Results flagged for a closer look

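Effects that differed between MPP+ treated and untreated cells, by limma's test of the difference over 24 libraries, were these. The knockdown effect on MTHFS was -0.73 untreated and -1.55 treated, a difference of -0.82 (adjusted p = 0.0126, limma). The overexpression effect on MTHFS was 0.41 untreated and 1.82 treated, a difference of 1.41 (adjusted p = 1.96e-05, limma). The knockdown effect on SHMT2 was 0.42 untreated and -0.06 treated, a difference of -0.48 (adjusted p = 0.0363, limma). That SHMT2 call ended without a filter (0.0686), under median-of-ratios scaling (0.0696), with the compared groups alone (0.107) and on leaving out most single libraries. The overexpression effect on SLC25A51 was 4.39 untreated and 6.63 treated, a difference of 2.23 (adjusted p = 1.32e-07, limma). Beside the last stands the oeNC level of SLC25A51, 2.89 times that of shScramble in untreated cells and 1.07 times with MPP+.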

How the results depend on the processing

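Depth cannot be read from TPM, so no counting error stands behind these values. These called changes kept their direction and call under every alternative run: MTHFS in treated knockdown, treated overexpression, treated vector controls and both differences; ALDH1L2 in untreated overexpression, treated knockdown, treated overexpression and treated vector controls; and SHMT2 in untreated overexpression. The other calls of members were each lost or turned under some alternative, in untreated knockdown and in other comparisons. With GC trends removed, MTHFD2 stood at 0.11 (adjusted p = 0.285, limma) in untreated and -0.14 (0.035) in treated overexpression. Directions of members that changed little also depended on libraries, scaling or GC trends. The causes were not tested.

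With GC trends removed, the number of members called became 2 in untreated knockdown, 2 in untreated overexpression, 2 in treated knockdown, 3 in the overexpression difference. Of 14157 genes tested, 614 were then called higher and 877 lower in untreated knockdown, and 1323 and 1267 in untreated overexpression. In treated knockdown 1915 and 2070 of 13923 genes were called, and in the overexpression difference 1975 and 1659 of 13151. Log2 changes turned sign in untreated knockdown MTHFD2L 0.56, in untreated overexpression MTHFD2L -0.35, in treated knockdown MTHFD1 0.00081, MTHFD2 0.02. Others that turned were, in treated overexpression SHMT1 -0.11, MTHFD1 -0.16, MTHFD2 -0.14, MTHFD2L -0.38, in untreated vector controls SHMT1 0.06, in treated vector controls MTHFD1 0.21, MTHFD1L 0.10, MTHFD2 0.25, MTHFD2L 0.14. Last, the sign turned in the knockdown difference MTHFD2L -0.22, in the overexpression difference SHMT1 -0.05. Under median-of-ratios scaling, the number of members called became 2 in treated knockdown, 1 in the knockdown difference, 2 in the overexpression difference. Over all genes the higher and lower calls were, in that order, 2554 and 2281 of 14895, 260 and 463 of 13571, and 979 and 1343 of 13571. Log2 changes turned sign in untreated knockdown MTHFD1L 0.02, MTHFD2L 0.12, in untreated overexpression MTHFD1L -0.11, in treated knockdown SHMT2 0.05, MTHFD1 0.01, MTHFD1L 0.04. Others that turned were, in treated overexpression SHMT1 -0.30, MTHFD1 -0.18, MTHFD1L -0.03, in untreated vector controls SHMT1 0.18, in treated vector controls SHMT1 0.06, MTHFD1 0.21, MTHFD1L 0.22, MTHFD2 0.06. Last, the sign turned in the knockdown difference MTHFD1L -0.01, MTHFD2L -0.01, SLC25A51 -0.05, in the overexpression difference SHMT1 -0.04, ALDH1L2 -0.07. Under quantile normalization, the log2 change turned sign in untreated knockdown MTHFD2L 0.18, in untreated overexpression MTHFD1L -0.02, in treated overexpression SHMT1 -0.25, MTHFD1 -0.01, MTHFD2L -0.05. Others that turned were, in untreated vector controls SHMT1 0.11, in treated vector controls MTHFD1L 0.06, in the knockdown difference MTHFD2L -0.02, SLC25A51 -0.08. Last, the sign turned in the overexpression difference SHMT1 -0.06. Without a filter, the number of members called became 1 in untreated knockdown, 3 in untreated overexpression, 2 in treated knockdown, 1 in the knockdown difference. With only the compared groups in the fit, the number of members called became 0 in untreated knockdown, 1 in the knockdown difference, beside 0 and 119 of all genes. With a pseudocount of 0.1, the log2 change turned sign in the knockdown difference ALDH1L2 0.07, in the overexpression difference ALDH1L2 -0.12. Median-of-ratios scaling over both tables put the median MPP+ difference of the 8 at 0.71 in shScramble, 0.43 in oeNC, 0.88 in oeMCART1. Leaving out 1 library at a time gave 0 to 6 members called in untreated knockdown, 3 to 6 members called in untreated overexpression, 2 to 3 members called in treated knockdown, 0 to 3 members called in untreated vector controls, 1 to 2 members called in the knockdown difference, 1 to 2 members called in the overexpression difference. In the same order, calls over all genes ran 2 to 7236, 3989 to 7689 and 3407 to 4587. They then ran 6 to 2227, 257 to 2554 and 2137 to 2747. Leaving out libraries turned uncalled log2 changes, which ranged in untreated knockdown SHMT1 -0.0029 to 0.08, MTHFD2L -0.14 to 0.03, in treated knockdown MTHFD2L -0.20 to 0.20. They also ranged in treated overexpression SHMT1 -0.002 to 0.03, in untreated vector controls SHMT1 -0.08 to 0.0044, MTHFD1L -0.02 to 0.07, MTHFD2L -0.04 to 0.15, MTHFS -0.14 to 0.10. They also ranged in the knockdown difference MTHFD2L -0.13 to 0.26, ALDH1L2 -0.21 to 0.09, SLC25A51 -0.10 to 0.25, in the overexpression difference MTHFD2L -0.16 to 0.03, ALDH1L2 -0.10 to 0.19.

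Over all genes, calls in untreated knockdown went from 5035 to 1491 with GC trends removed, 1272 without a filter and 2 to 7236 on leaving out a library. In untreated overexpression they went from 7082 to 2590 with GC trends removed and between treated controls from 7134 to 3345. Between untreated controls they were 1050 with GC trends removed, 60 without a filter, 297 with a robust variance, 45 with only the compared groups and 6 to 2227 on leaving out a library. For the knockdown difference they were 1077, 119 with only the compared groups, and 257 to 2554. Same-numbered libraries of compared groups deviated together with correlations of -0.0729 to 0.211, not every one over 0.1. In untreated and treated overexpression every library matched its own number best, and in treated knockdown none did. The other comparisons were mixed. Whether the numbers pair the samples is thus not settled. With the replicate number as a block, 1 member was called between untreated vector controls, 2 for the overexpression difference, 6 in untreated overexpression (MTHFD1 gained) and 3 in treated knockdown; over all genes the calls went from 189 to 1936 and from 610 to 1108 between untreated controls and for the knockdown difference. In treated knockdown the SHMT1 call ended with the block (adjusted p = 0.0643, limma).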
